A study of Mus musculus with 2 samples.

Results

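The genes examined here encode the glycoproteins, proteoglycans and elastic fibre proteins that surround cells: 34 genes, chosen by name as members of these families and found by the gene symbol that the deposited table gives each probe set. They are 34 of the 20660 genes measured, and 81 probe sets carried 1 of these symbols alone. RNA was measured in kidney at postnatal day 3 in a wild-type sample, for which no strain is given, and in a sample of the B6C3Fe a/a-bpck mutant, which the series presents as a polycystic kidney disease mouse. Each was read on 1 Affymetrix Mouse 430 2.0 array, on which a set of short probes measures a transcript, and neither the sex nor the number of animals behind a sample is given. With 1 array per group there is no replicate error and no test, so the differences below describe these arrays. They are given as values and counts beside the same counts over all genes.

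The extracellular matrix is a mesh laid down largely by fibroblasts and other stromal cells. Provisional matrix and matricellular proteins, such as fibronectin and tenascin, guide cells during growth and repair. Small leucine-rich proteoglycans bind collagen fibrils and set their thickness, and elastic fibres are built from elastin on a scaffold of fibrillin microfibrils and crosslinked by lysyl oxidases. In polycystic kidneys the interstitial matrix is known to expand as cysts enlarge.

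Both arrays were of like overall brightness, with median intensities of 16.97 in wild type and 16.13 in mutant over 45037 probe sets. All 12 markers of kidney epithelium and nephron fixed for the tissue check were above the intensity filter, a brighter-array value of at least 16.53. The samples differed beyond genotype. Xist, expressed from the inactive X chromosome, read 4.67 in wild type and 1113 in mutant, and Ddx3y, on the Y chromosome, was 4.67-fold lower in mutant. The 13 adrenal markers summed to 691 in wild type and 96.8 in mutant, and Hsd3b1, a steroid enzyme gene, read 204.7 and 2.77. All 9 above the filter were lower, but each passed it through the wild-type array alone, which fixed that direction. Below the filter Cyp11a1 read higher in mutant (5.69 and 9.7), and Cyp11b2, Cyp21a1 and Nr5a1 read lower. Sex-linked transcripts, adrenal transcripts and genotype cannot be told apart here.

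Matrix genes of this kind were close to equal in the mutant and wild-type kidneys. All 34 passed the filter, and 32 reached the 75th percentile of intensity (83.5). With each gene represented by its brightest probe set, 29 of 34 (85.3%) lay within 1.2-fold and 21 (61.8%) within 1.1-fold. Of the genes reaching the 75th percentile 88.2% and 64.3% did so, and of all genes above the filter 78.9% and 54.6%, so the members were about as close as other genes of like brightness. Dpt, encoding the collagen-binding protein dermatopontin, was the 1 member at least 1.5-fold apart, lower in the mutant (2.94% of the members). Of the 13146 genes above the filter 4.58% were that far apart. The next were Lum and Ecm1, also lower. That made 3 members of 34 (8.82%) with a ratio of at least 5 to 4 between the arrays. Of all genes above the filter 15% were that far apart. Among those reaching the 75th percentile it was 2 of 32 members (6.25%) and 6.83% of all genes. These shares are near or under the background.

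The direction of 12 of the members depends on how the arrays are scaled. On the deposited scale 22 members were lower and 12 higher, while 51.9% of all genes were lower and 48% higher. The median log2 difference, mutant minus wild type, was -0.03 for the members and -0.01 for all genes. With the array medians set equal 11 members were lower and 23 higher, and these medians were 0.04 and 0.07. Of the 13146 genes above the filter 8476 were then higher and 4670 lower. Further counts under equal array medians below are to be read beside these. In 22 of the 34 members the direction was the same under the deposited scale and the 3 other scalings (equal medians, quantile scaling and equal sums), while in the other 12 it turned under at least 1 of them. The spread of the log2 differences had an SD across genes of 0.24 for the members, 0.24 for genes reaching the 75th percentile and 0.30 for all genes above the filter.

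**Figure D1:**
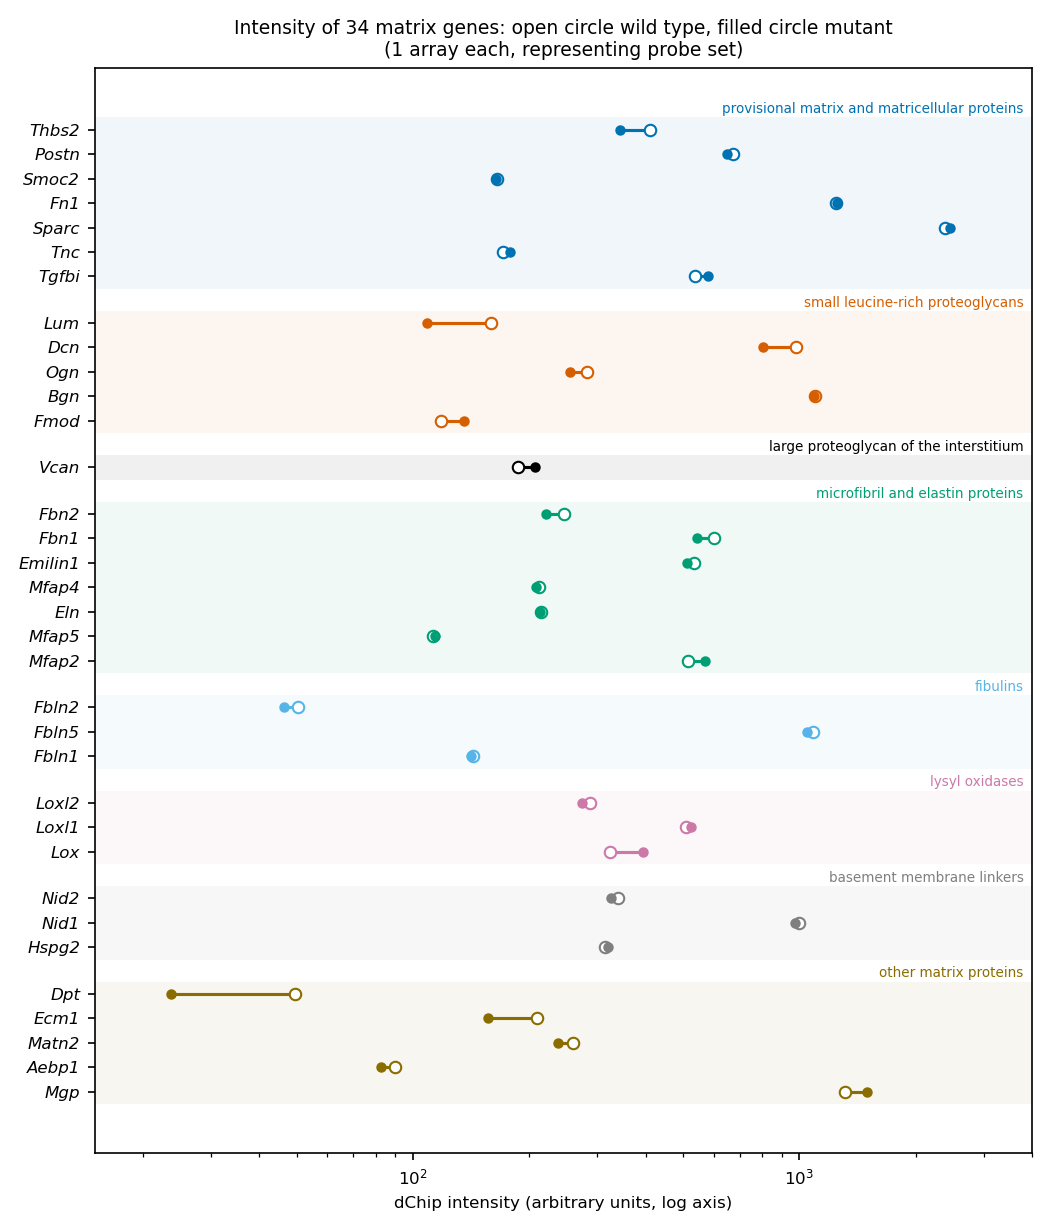
Intensity (arbitrary units, log axis) of the representing probe set of each of the 34 matrix genes in the wild-type array (open circle) and the mutant array (filled circle), grouped by role. The pairs farthest apart are Dpt (49.5 and 23.7), Lum (159 and 109) and Ecm1 (209 and 157), all lower in the mutant. Next are Dcn (982 and 806), lower, and Lox (324 and 394), higher, and the other 29 lie within 1.2-fold.

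**Figure D2:**
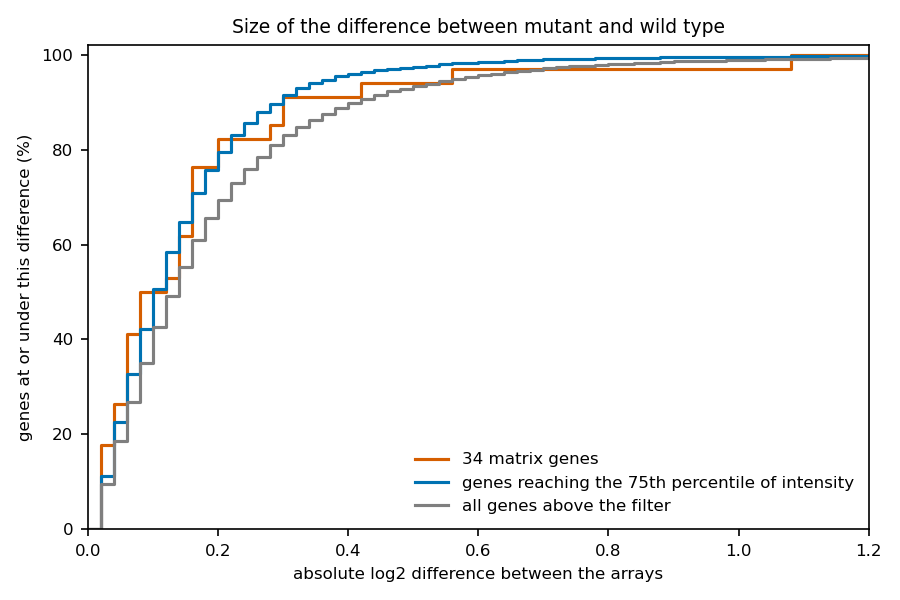
Percentage of genes (vertical axis) whose absolute log2 difference between the arrays is at or under the value on the horizontal axis, for the 34 matrix genes, genes reaching the 75th percentile of intensity and all genes above the filter. At 0.20 the curves stand at 82.4%, 79.6% and 69.4%, with the matrix genes nearer to the brighter genes than to all genes.

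Dermatopontin, lumican and extracellular matrix protein 1 differed most. Dpt read 49.5 in wild type (dChip standard error 0.96) and 23.7 in mutant (2.01), a log2 difference of -1.06, or 2.09-fold lower. It has 1 probe set and stayed under the 75th percentile in both arrays. The standard errors are dChip's and say nothing of animals. Intensity times error matched between the arrays, so a pair of errors holds 1 quantity and gives no separate error for each array. The authors' deposited table gives Dpt a fold of -2.09, with bounds of -1.83 and -2.44. That table's header names a criterion of a fold past 1.5 by its lower bound and a difference over 20, which Dpt alone of the 34 met, while 0.983% of all genes measured met it on at least 1 probe set.

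Lum encodes lumican, a keratan sulfate proteoglycan that orders collagen fibrils. It read 159 in wild type (standard error 1.33) and 109 in mutant (1.95), 1.46-fold lower. Ecm1 encodes a secreted glycoprotein that binds perlecan and other matrix proteins. It read 209 (3.60) and 157 (4.81), 1.33-fold lower. For both genes 1 probe set carries the value, and under the other scalings the log2 difference ran from -0.47 to -0.55 for Lum and from -0.34 to -0.42 for Ecm1.

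To place the values beside the genes' own sequence, the promoters of Dpt and Ecm1, low in the mutant, and of Fmod, a proteoglycan gene that read slightly higher, are shown from RefSeq (GRCm38.p6), each 300 bases from 250 before the annotated start, 5′ to 3′ in the direction of transcription. Capitals mark matches, on either strand, to TATAAA (the TATA box core) or TGANTCA (the AP-1 site); GGAATG (the TEAD site) was searched as well, and no matches overlapped.
Dpt, chr1:164796413-164796712, plus strand: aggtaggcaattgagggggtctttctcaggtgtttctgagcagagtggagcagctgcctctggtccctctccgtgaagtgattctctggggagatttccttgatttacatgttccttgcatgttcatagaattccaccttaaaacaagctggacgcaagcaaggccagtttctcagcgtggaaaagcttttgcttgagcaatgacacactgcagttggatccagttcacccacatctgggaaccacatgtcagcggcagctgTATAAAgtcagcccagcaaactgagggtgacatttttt
Ecm1, chr3:95739520-95739819, minus strand: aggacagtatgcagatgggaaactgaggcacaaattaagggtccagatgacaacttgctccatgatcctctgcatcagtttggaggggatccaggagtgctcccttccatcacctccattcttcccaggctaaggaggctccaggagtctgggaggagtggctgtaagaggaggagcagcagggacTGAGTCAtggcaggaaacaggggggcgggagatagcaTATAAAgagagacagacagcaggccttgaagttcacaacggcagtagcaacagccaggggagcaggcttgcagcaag
Fmod, chr1:134037004-134037303, plus strand: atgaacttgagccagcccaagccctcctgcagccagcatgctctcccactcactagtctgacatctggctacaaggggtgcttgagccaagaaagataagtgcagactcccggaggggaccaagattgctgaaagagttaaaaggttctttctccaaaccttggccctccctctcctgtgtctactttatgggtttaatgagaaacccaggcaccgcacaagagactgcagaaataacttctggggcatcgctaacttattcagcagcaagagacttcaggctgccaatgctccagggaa
TATAAA begins 27 bases before the annotated start in Ecm1 and 12 bases past it in Dpt, and the AP-1 letters of Ecm1 begin 64 bases before it. None of the 3 motifs is in the Fmod window. Promoters were found for 20 of the 34 members, 25 windows in all. TATAAA was in 7 of these (28%), belonging to Dpt, Ecm1, Ogn, Postn, Thbs2 and Tnc, and in 13.6% of all 32817 promoters. TGANTCA was in 1 member window and 7.81% of all promoters, and GGAATG in 3 member windows (Mfap2, Nid1 and Ogn) and 14.7% of all promoters. These are matches of letters, not shown binding sites. The genes whose promoters are printed were picked as examples, and a link between motif and direction was not tested.

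Among the small leucine-rich proteoglycans 4 of 5 were lower and their median log2 difference was -0.15. Under equal array medians 3 of 5 were lower and the median was -0.08. Without Lum the median of the other 4 was -0.08 on the deposited scale. It was -0.01 under equal array medians, with 2 higher and 2 lower. After Lum came Dcn, encoding decorin, which coats collagen fibrils and binds TGF-beta. Its intensities were 982 in wild type and 806 in mutant (1.22-fold lower). Its dim probe set, at 19.9 and 14.6, passed the filter through wild type alone and so could only count as lower. Ogn, encoding osteoglycin, read 283 and 254 on 1 probe set and 118 and 103 on the other, lower on both. Bgn, encoding biglycan and the member on the X chromosome, was within 1.01-fold (1099 and 1092), and its 3 probe sets lay between -0.10 and -0.01 on the log2 scale. Fmod, encoding fibromodulin, was the exception, at 118 and 135, or 1.15-fold higher. Of its 5 probe sets above the filter 4 were higher and 1 lower, from -0.05 to 0.24 on the log2 scale. Summed over the 5 genes, the intensity was 2641 in wild type and 2397 in mutant. Vcan, encoding versican, a large hyaluronan-binding proteoglycan, read 187 and 206 on its brightest probe set and 80.2 in both arrays on the next.

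Because whole kidney was measured, fewer cells of a type and less RNA per cell cannot be told apart. Markers of other cells read as follows beside these proteoglycans. In the list for interstitial stroma and fibroblasts 8 of the 11 members above the filter were lower (6 of 11 with array medians set equal), and the 12 measured members summed to 10389 in wild type and 10249 in mutant. The stromal markers farthest apart were Dlk1, encoding a Notch-like membrane protein, at 27.1 and 5.92, Meox1 at 88.0 and 74.7, and Foxd1, the transcription factor of renal stromal progenitors, at 134.9 and 114.0. In the smooth muscle and pericyte list 7 of 8 were higher (8 of 8 with array medians set equal), and the sums were 3941 and 4703. The contractile genes Acta2 (2068 and 2548) and Tagln (591 and 802) were among those higher. Rgs5 was 1.04-fold higher, and Cspg4, Des and Mcam differed by less. The part of stromal, muscle and adrenal cells in the proteoglycan values was not tested.

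Elastic fibre genes hardly differed. Of the 13 structural, fibulin and lysyl oxidase genes, 9 were lower and 4 higher (median -0.03), or 3 and 10 under equal array medians (median 0.04), and no representing probe set reached a ratio of 5 to 4 between the arrays. Eln, encoding elastin, read 214 and 213, within 1.01-fold. The microfibril genes Fbn1 and Fbn2, encoding the fibrillins, read 601 and 542 and 246 and 221, each 1.11-fold lower, although the other probe set of Fbn2 was 1.03-fold higher. Mfap2, encoding a glycoprotein that binds fibrillin, stood on the other side at 515 and 569, 1.11-fold higher. Mfap4 (212 and 208), Mfap5 (113 and 114) and Emilin1, whose protein anchors elastic fibres to cells (534 and 511), were within 1.05-fold, and of these Mfap4 and Emilin1 turned direction with array medians set equal.

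Fibulins bridge elastin, fibrillin and basement membranes. Fbln5, needed for elastic fibre assembly in mice, read 1082 and 1045, Fbln1 143 and 142, and Fbln2 50.5 and 46.3. All 3 were lower, by at most 1.09-fold, and under equal array medians only Fbln2 was lower. Among the lysyl oxidases, copper enzymes that crosslink collagen and elastin, Lox was the member farthest higher of all 34 on representing probe sets. It read 324 in wild type (standard error 3.54) and 394 in mutant (2.91), 1.22-fold higher, while its next probe set read 96.0 and 100.1, 1.04-fold higher. Loxl1 (508 and 523) and Loxl2 (286 and 275) were within 1.05-fold, and the latter was lower on this probe set and higher on its other.

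**Figure D3:**
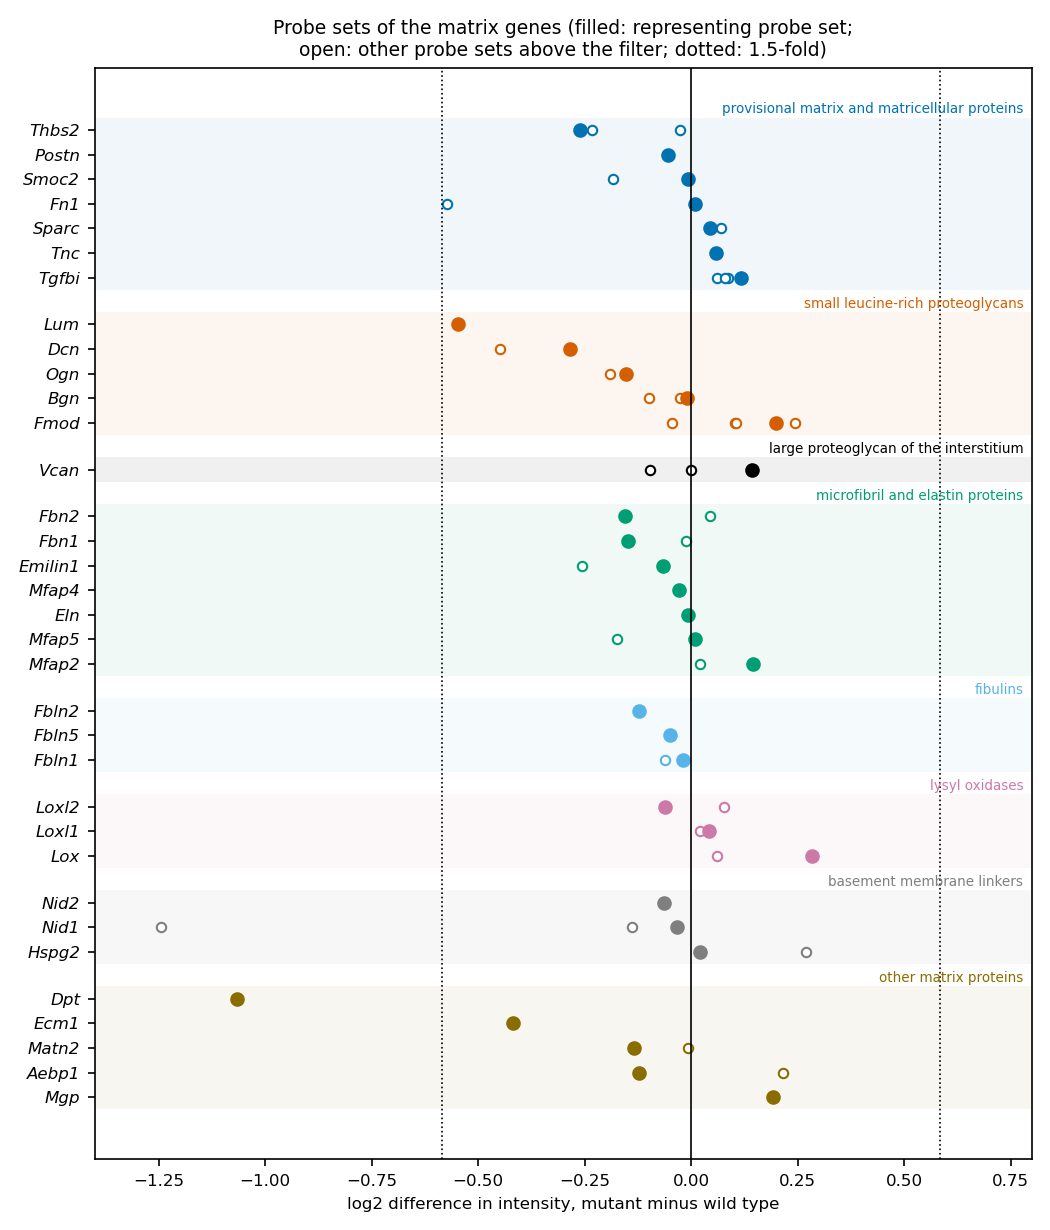
Log2 difference in intensity, mutant minus wild type, of each probe set above the filter for the 34 matrix genes, grouped by role, with the representing probe set filled and dotted lines at 1.5-fold. The representing probe sets gather around 0 between -0.55 and 0.28 apart from Dpt at -1.06, and a dim probe set of Nid1 lies at -1.24.

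Of the provisional matrix and matricellular genes 4 were higher and 3 lower (median 0.01), or 6 and 1 under equal array medians. Sparc, encoding a collagen-binding protein of remodelling tissue, read 2377 and 2451, and its other probe set above the filter was higher as well. Fn1, encoding fibronectin, read 1242 and 1250.5 on its brightest probe set, within 1.01-fold. Its dimmer probe set read 73.9 and 49.7, 1.49-fold lower, so the gene's probe sets did not give 1 answer. Postn, encoding periostin, read 672 and 648, and Tnc, encoding tenascin-C, 171 and 178. Tgfbi, encoding a TGF-beta-induced adhesion protein, was the gene of this group with the most probe sets, and all 4 were higher, by log2 differences of 0.06 to 0.12. Thbs2, encoding an anti-angiogenic thrombospondin, was lower on all 3 of its probe sets, from 410.3 and 343 on the brightest to 144 and 141. Smoc2, encoding a SPARC-related calcium-binding protein, read 165 and 164.

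Basement membrane linkers were equal within 1.05-fold on their representing probe sets, with a median of -0.03, which became 0.04 under equal array medians. Nid1 and Nid2 encode nidogens, which join laminin to type IV collagen, and read 998 and 975 and 339.9 and 325. A dim probe set of Nid1, at 18.4 and 7.78, was 2.37-fold lower, but it passed the filter through wild type alone. The other one of Nid1 read 203 and 184. Hspg2, encoding the heparan sulfate proteoglycan perlecan, read 314 and 319, and 70.3 and 84.7 on its other probe set. Of the remaining members, Mgp, encoding an inhibitor of calcification, read 1311 and 1499, 1.14-fold higher. Matn2, encoding a filament-forming matrilin, read 260.1 and 237, and Aebp1, encoding a collagen-binding protein, 89.9 and 82.6, with its other probe set going the opposite way (63.8 and 74.1).

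For the 23 members that had more than 1 probe set over the filter, the between-probe-set SD (log2) was 0.12 at the median, against 0.13 for 5269 genes. All such probe sets lay on 1 side of 0 in 16 of the 23 (69.6%), against 51.6% of the 5269 genes. These genes include dimmer ones, and the comparison was not matched for brightness. Dcn and Nid1 are among the 16, and each has a dim probe set that passed the filter through wild type alone. Nid1 alone exceeded the 95th percentile of all genes (0.47). The 7 members with 1 probe set in all were Dpt, Lum, Ecm1, Mgp, Mfap4, Nid2 and Postn, so the 3 genes farthest lower have no second reading.

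Matrix genes outside the 34 were taken from 6 lists of the same pathway. Of the 116 genes measured, 79 passed the filter, 39 higher and 40 lower (median -0.00), or 51 higher and 28 lower under equal array medians. At least 1.5-fold higher were 4 (2.01% of all genes above the filter were) and at least 1.5-fold lower 3 (2.57%). Those higher were Spock2, encoding a secreted testican proteoglycan (19.0 and 44.1), Ccn1, encoding a matricellular protein (183 and 376), Thbs1, encoding a thrombospondin that can activate TGF-beta (99.9 and 150.03), and Frem2, a basement membrane gene of the Fraser complex (193 and 304). Those lower were Chst13, encoding a chondroitin sulfotransferase (25.2 and 12.0), Hapln1, encoding a link protein of hyaluronan and versican (43.0 and 21.7), and Spon1, encoding the adhesive protein F-spondin (174 and 108). Spock2, Chst13 and Hapln1 stayed under the 75th percentile in both arrays.

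By list, the other basement membrane glycoproteins were mostly higher, 7 of 8 with a median of 0.23 (7 of 8 also under equal medians and quantile scaling). Npnt, encoding nephronectin, an integrin ligand needed for kidney development in mice, read 1495 and 2015, and its 5 probe sets were all higher, by 0.35 to 0.63 on the log2 scale. Ntn4, encoding a laminin-binding netrin, read 224 and 275. The proteoglycan chain synthesis enzymes were lower for 17 of 24 (median -0.07), but under equal array medians for 12 of 24. In that list Sulf1, encoding a heparan sulfate endosulfatase, read 72.8 and 56.4, and Papss2, which makes the sulfate donor, read 545 and 722, though its 3 probe sets ran from -0.63 to 0.90 on the log2 scale.

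The other elastic fibre and crosslinking genes were higher for 8 of 14 (median 0.05), or under equal array medians for 11 of 14. Efemp1, encoding fibulin-3, read 137 and 191, 1.40-fold higher, farther apart than any of the 13 elastic fibre members above. Ltbp4, encoding a TGF-beta-binding protein of microfibrils, read 85.2 and 97.1, and the dim Loxl4 14.6 and 18.5. The other small leucine-rich and secreted proteoglycans were divided, 3 of 7 higher (median -0.02), with Aspn, encoding asporin, at 472 and 396 and Podn, encoding podocan, at 25.7 and 33.5. Hyaluronan-related genes were higher for 5 of 7 (median 0.11), with the link protein genes Hapln2 at 76.3 and 99.0 and Hapln4 at 21.2 and 31.2. Of the other matricellular and adhesive genes 9 of 19 were higher (median -0.00), or 11 of 19 under equal array medians.

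**Figure D4:**
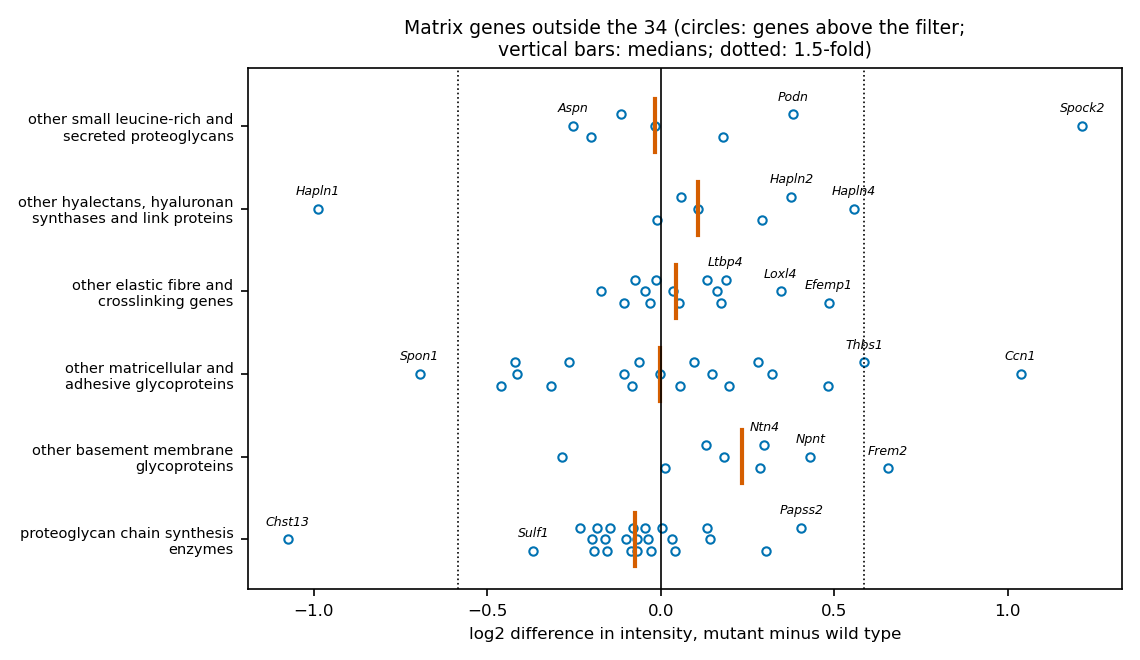
Log2 difference in intensity, mutant minus wild type, of the 79 matrix genes outside the 34 that passed the filter, by list, with medians as vertical bars and the 3 genes farthest from 0 in each list named. The basement membrane glycoproteins gather to the right of 0 (median 0.23), while the other medians lie between -0.07 and 0.11.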

How the data were processed

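Kidney RNA samples, 1 per group, were labelled with biotin from 100 ng and hybridised to Affymetrix arrays, per the labels. The deposited intensity is a linear-scale index that the authors computed for every probe set with dChip, per the series' design text. Per the file headers, Affymetrix control probe sets were left out and standard errors were used in averaging. The signed fold with its bounds is the authors' own score, used here only where named. How background was subtracted and arrays were scaled is not given in the sources used here. The 2 deposited files held equal intensities in all 45037 probe sets. dChip's standard errors were near 1.18% of the value (median over the members' probe sets), and the product of intensity and error matched between the arrays (ratio 0.995 to 1.00 in 52 probe sets), so a pair of errors holds 1 quantity.

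Probe sets were assigned to genes by the deposited annotation, updated by gene number through a RefSeq table (GRCm38.p6): 37579 named 1 gene, of which 34316 matched, while 1467 with several genes and 5991 with none were left out. Values under the 20th percentile (4.2) were set to it before log2 was taken. The probe set with the highest mean log2 intensity represented its gene, which was kept where 1 array was at or over the median of all values (16.53). This left 13146 of 20660 genes. A gene or probe set that passed through 1 array alone could only read higher in that array. Counts past 1.5-fold, 2-fold or a ratio of 5 to 4 carry no test. The number of arrays limits the precision. The calculation was tested on simulated data, in Python 3.11.15 with numpy 2.4.6 and pandas 2.3.3. That test left out the floor and filter and planted changes larger than any member showed, so it does not bear on small differences.

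Named are all 34 members, up to 3 genes above the filter with the largest absolute difference in each further list, and Xist, Ddx3y and Hsd3b1. Kera, Epyc, Ecm2, Omd, Optc and Prelp were named after their values were seen, as were further adrenal, muscle, pericyte and macrophage markers. The members and lists were chosen with earlier results of these data known. Alternatives were equal medians, quantile scaling, equal sums, the floor left out or raised to the 40th percentile, a pseudocount of 32 in its place, the filter left out or raised to the 75th percentile, averaging a gene's probe sets, leaving out suffixed probe sets, other thresholds and the second file. The criterion of the deposited header was added after the data were seen.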

Additional observations from a re-analysis of the deposited data

How the results depend on the processing

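No paired analysis was possible because each group has 1 array. Member values were recomputed under 11 alternatives, and 11 of the 370 values moved by 0.13 or more (log2), the median SD between probe sets of a gene. That share is no measure of stability, because many of the 370 could not move so far. The other floors and filters and the second file left each retained value as it was. Equal medians moved the members alike by 0.07, and equal sums by less. Most of the moves came from averaging a gene's probe sets. With the mean of a gene's probe sets, dim ones included, 14 members were higher and 20 lower. Some members turned direction under it, among them Fn1 (0.01 to -0.28), Fbn1 (-0.15 to 0.17) and Aebp1 (-0.12 to 0.05). Dpt, the member at least 1.5-fold apart, kept its direction in the 10 alternatives that retained it. It ran from -1.07 to -0.55, Lum from -0.55 to -0.44, Ecm1 from -0.42 to -0.34 and Lox from 0.11 to 0.36.

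With array medians set equal 23 members were higher and 11 lower, and genes at least 1.5-fold apart were 392 higher and 238 lower in place of 264 and 338. That scaling moved the median of all genes by 0.07, and genes with an array under the floor by less. No member reached 1.5-fold (0) with a pseudocount of 32 or, since Dpt is then left out, with a filter at the 75th percentile, whereas 3 passed a ratio of 5 to 4. Over all genes the counts higher and lower were 71 and 33 with the pseudocount, 82 and 47 with the strict filter, 986 and 1216 with no filter, 69 and 68 at 2-fold, 903 and 1070 at a ratio of 5 to 4, and 112 and 91 by the criterion of the deposited header. The fibulin median was -0.29 with the mean of all probe sets, which draws in dim ones, and the median of the basement membrane linkers 0.12 without suffixed probe sets, where Hspg2 stands on its other probe set and Nid2 is left out. Intensities near the floor limit the dim probe sets.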

Other observations

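Several small leucine-rich proteoglycan genes lie next to each other in the genome, which the role groups did not use. On chromosome 10 Dcn and Lum are neighbours and were both lower (-0.28 and -0.55 on the log2 scale). Kera and Epyc, which follow them, were below the filter. Kera read 4.58 and 7.4, higher in the mutant, and Epyc 6.81 and 4.04, lower. On chromosome 13 the order is Ecm2, Aspn, Omd and Ogn. Aspn and Ogn were lower (-0.25 and -0.15), and Ecm2 and Omd, below the filter, read 14.96 and 12.3 and 10.01 and 8.98. On chromosome 1 Prelp and Fmod are neighbours and went opposite ways (-0.20 and 0.20). Optc, below the filter, read 2.01 and 7.14, higher in the mutant. The differences were not tested, and of the genes above the filter only Lum reached a ratio of 5 to 4.

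Markers of other tissue in the samples gave further values. Ucp1 and Cidea, genes of brown fat, read 46.5 and 157.8 and 15.4 and 39.03, higher in the mutant, while Adipoq read 59.8 and 45.6, and 3 of 5 fat markers above the filter were higher. Csf1r, Adgre1 and Cd68, macrophage genes, were higher (Csf1r 1.52-fold, Adgre1 1.41-fold, and Cd68 at 18.5 and 27.8), and 5 of 6 macrophage markers were higher. The others differed less, with Mrc1 1.19-fold and C1qb 1.02-fold higher and C1qa 1.01-fold lower. Of 6 endothelial markers 5 were lower, with Cd34 at 235 and 193, Cdh5 at 286 and 244 and Tek at 297 and 256. Among 4 candidate genes of the capsule of kidney and adrenal, Gli1 read 17.8 and 22.1, Rspo3 67.4 and 62.0 and Wnt4 249 and 247. Their part in the matrix values was not tested.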
